A study of Homo sapiens with 4 samples.

Results

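ABCC3, AKR1B10 and SQSTM1 are genes under the control of the transcription factor NRF2, and each had peaks in FSCN1 iRIP-seq data from A549 cells. The genes were chosen by the presence of such peaks in either list, and their peaks were taken as all peaks of either strand that overlapped them or were assigned to them. This gave 12 of the 419 peaks in the peak lists of both IP replicates, and 3 of the 121 genes with a peak. The presence of peaks at these genes is therefore a description and was not tested.

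Fascin (FSCN1) is an actin-bundling protein, and the experiment asked which RNAs it contacts. A549 is an established lung adenocarcinoma cell line, and all samples came from this 1 line with no other treatment or genotype named. The cells were irradiated with UV light to fix protein to RNA, the RNA was digested, and the RNA held by FSCN1 was sequenced as 2 IP replicates. The labels also name 2 input samples, 1 of which they call input plasmid, and these were not analysed here. The labels name an antibody against a FLAG tag, as does the study's caption for the western blot of the precipitates. The methods name an antibody against FSCN1. It therefore cannot be told from these sources whether the endogenous or a tagged protein was precipitated.

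NRF2, encoded by NFE2L2, switches on genes against oxidants and foreign compounds. In unstressed cells KEAP1 hands NRF2 to a CUL3 ubiquitin ligase for destruction, and A549 cells carry a mutated KEAP1, so that NRF2 is constantly active in them. Its target ABCC3 is an export pump for glucuronide and other organic anion conjugates, AKR1B10 is an aldo-keto reductase of retinal and reactive aldehydes, and SQSTM1 encodes p62, an autophagy receptor that also binds KEAP1.

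The reference sequences of 7 of the 8 positions with peaks are printed to show how exons, introns and splice sites lie in them. They are from GRCh38, 5′ to 3′ on the plus strand, which is the strand of each gene. Capitals mark bases in an exon of the canonical transcript and lower case marks intron bases. The position in the 5′ UTR of AKR1B10 is described without its sequence.
ABCC3 intron 6, chr17:50658601-50658650: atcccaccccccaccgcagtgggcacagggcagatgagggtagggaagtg
ABCC3 exon 7, chr17:50659251-50659300: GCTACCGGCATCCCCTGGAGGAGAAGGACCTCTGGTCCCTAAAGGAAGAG
ABCC3 intron 7 and exon 8, chr17:50660901-50661000: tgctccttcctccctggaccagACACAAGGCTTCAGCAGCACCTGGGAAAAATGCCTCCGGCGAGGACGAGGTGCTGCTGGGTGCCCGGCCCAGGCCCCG
ABCC3 intron 8, chr17:50661401-50661450: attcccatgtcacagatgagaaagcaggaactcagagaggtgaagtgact
AKR1B10 intron 4, chr7:134535251-134535300: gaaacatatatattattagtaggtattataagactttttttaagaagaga
SQSTM1 exon 6, chr5:179833151-179833200: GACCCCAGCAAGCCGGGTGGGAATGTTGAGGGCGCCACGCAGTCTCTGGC
SQSTM1 intron 6 and exon 7, chr5:179833551-179833600: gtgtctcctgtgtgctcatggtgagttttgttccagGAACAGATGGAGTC

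A peak in these lists is a run of 50-bp bins on 1 strand with a number of read tags per bin. IP replicate 1 had 181 peaks with a median of 9 tags, from 7 to 151. IP replicate 2 had 238 peaks with a median of 8 tags, from 6 to 170. The lists do not give library depth and the tags were not scaled to it, so tags are not compared between the replicates. The exception is the search for like genes, which took the tallest peak of a gene over both lists. Intervals given with tags are exact Poisson 95% intervals and cover counting error only. The p-value beside each peak is the peak caller's, from the tags of 1 list, and compares no samples.

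In IP replicate 1, the 6 peaks of ABCC3 and SQSTM1 had 7 to 12 tags with a median of 8.5, close to the median of that list. In IP replicate 2, the 6 peaks of ABCC3 and AKR1B10 had 6 to 7 tags with a median of 6, below that of the list. Of the 12 peaks, 1 had more tags than the median of its list. Among all peaks, 46.4% of those in IP replicate 1 and 39.1% of those in IP replicate 2 had more tags than that median. Peaks assigned to protein-coding genes had a median of 8 tags in IP replicate 1 and 7 in IP replicate 2. All 12 peaks were assigned by the authors' lists to the gene they overlapped, and 11 were 1 bin wide. Each replicate held 6 of them, but none of the 12 overlapped a peak of the other replicate by 1 bp or more on the same strand. This overlap was found for 26.0% of all peaks in IP replicate 1, for 19.7% in IP replicate 2 and for 22.4% of both, and over peaks assigned to protein-coding genes for 8.25%. By gene, ABCC3 had peaks in both replicates, AKR1B10 only in IP replicate 2 and SQSTM1 only in IP replicate 1. Of the 85 protein-coding genes with a peak, 17.6% had one in both replicates.

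**Figure D1:**
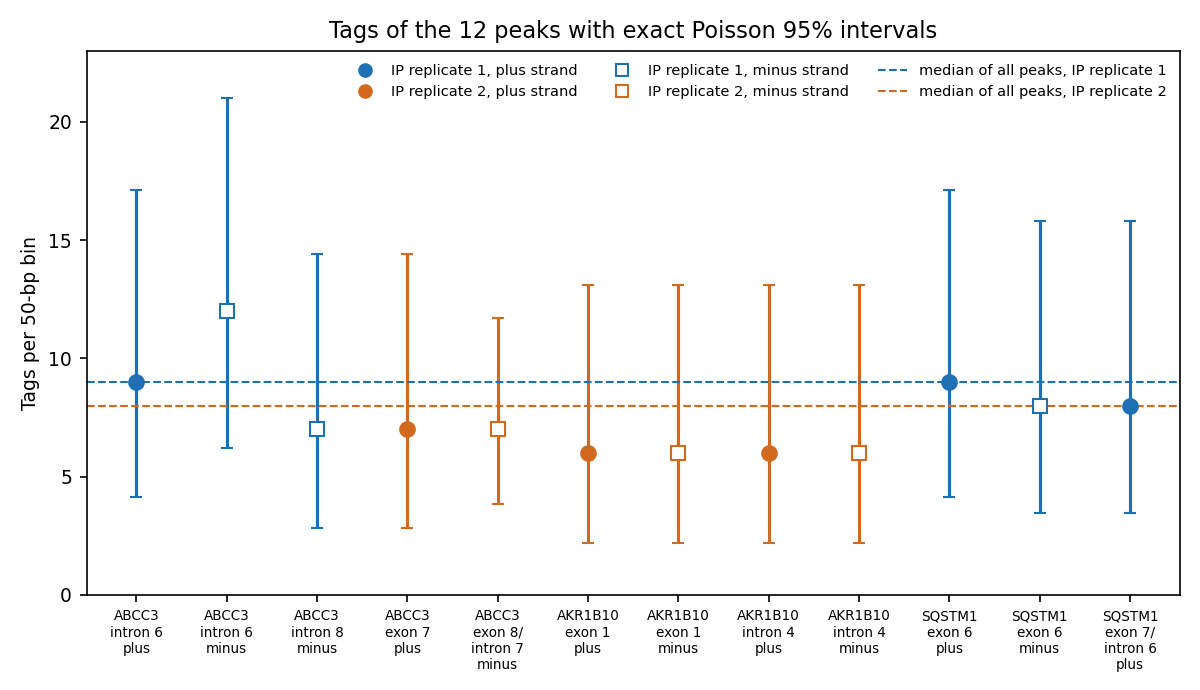
Read tags per 50-bp bin (y axis) of each of the 12 peaks (x axis, with gene, place and strand), with exact Poisson 95% intervals. Filled circles are peaks on the plus strand, open squares peaks on the minus strand, blue is IP replicate 1 and orange IP replicate 2, and dashed lines are the medians of all peaks of each list. The ABCC3 intron 6 peak on the minus strand, with 12 tags, is the one point above its list's median, and every interval spans that median.

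ABCC3 (ENSG00000108846.16, chr17:50634777-50692253, plus strand, 31 exons in the canonical transcript) had 5 peaks at 4 positions. In IP replicate 1, a position in intron 6 had 9 tags on the plus strand (interval 4.12 to 17.1, p-value 9.16e-08 in the list) and 12 tags on the minus strand (6.20 to 21.0, p-value 4.78e-11). Its first base lay 105 nt past the end of exon 6, and it was the only position of ABCC3 with peaks on both strands. A position in intron 8 had 7 tags on the minus strand in the same replicate (2.81 to 14.4, p-value 2.65e-06). Its nearest splice site, that of exon 8, was 287 nt away. The list gives the plus-strand peak as intronic and both minus-strand peaks as antisense.

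The ABCC3 peaks of IP replicate 2 lay in other bins of the same stretch. A peak within exon 7 had 7 tags on the plus strand (2.81 to 14.4, p-value 1.29e-06) and began 14 nt past the start of the exon. It covered codons 230 to 246 of 1527. A peak of 2 bins on the minus strand had 7 tags per bin, 14 in all (3.83 to 11.7 per bin, p-value 5.50e-07). It spanned the 3′ splice site of exon 8, with 22 bases in intron 7 and 78 in the exon, in codons 269 to 295. On the plus strand the nearest peaks of the replicates were separated by 600 bp, and on the minus strand by 400 bp.

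The 4 positions of ABCC3 fell within 2850 bp, or 4.96% of the 57477 bp of the gene, from intron 6 to intron 8. Among the 27 protein-coding genes with peaks at 2 or more places, this span ranged from 250 to 35200 bp with a median of 2050 bp, and 16 genes had a shorter one. In tags, 34.8% of the peaks of IP replicate 1 exceeded the highest ABCC3 peak, and 52.1% of those of IP replicate 2 exceeded the ABCC3 peaks there. No other annotated gene overlaps ABCC3, so the 3 minus-strand peaks had no annotated gene on their own strand.

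**Figure D2:**
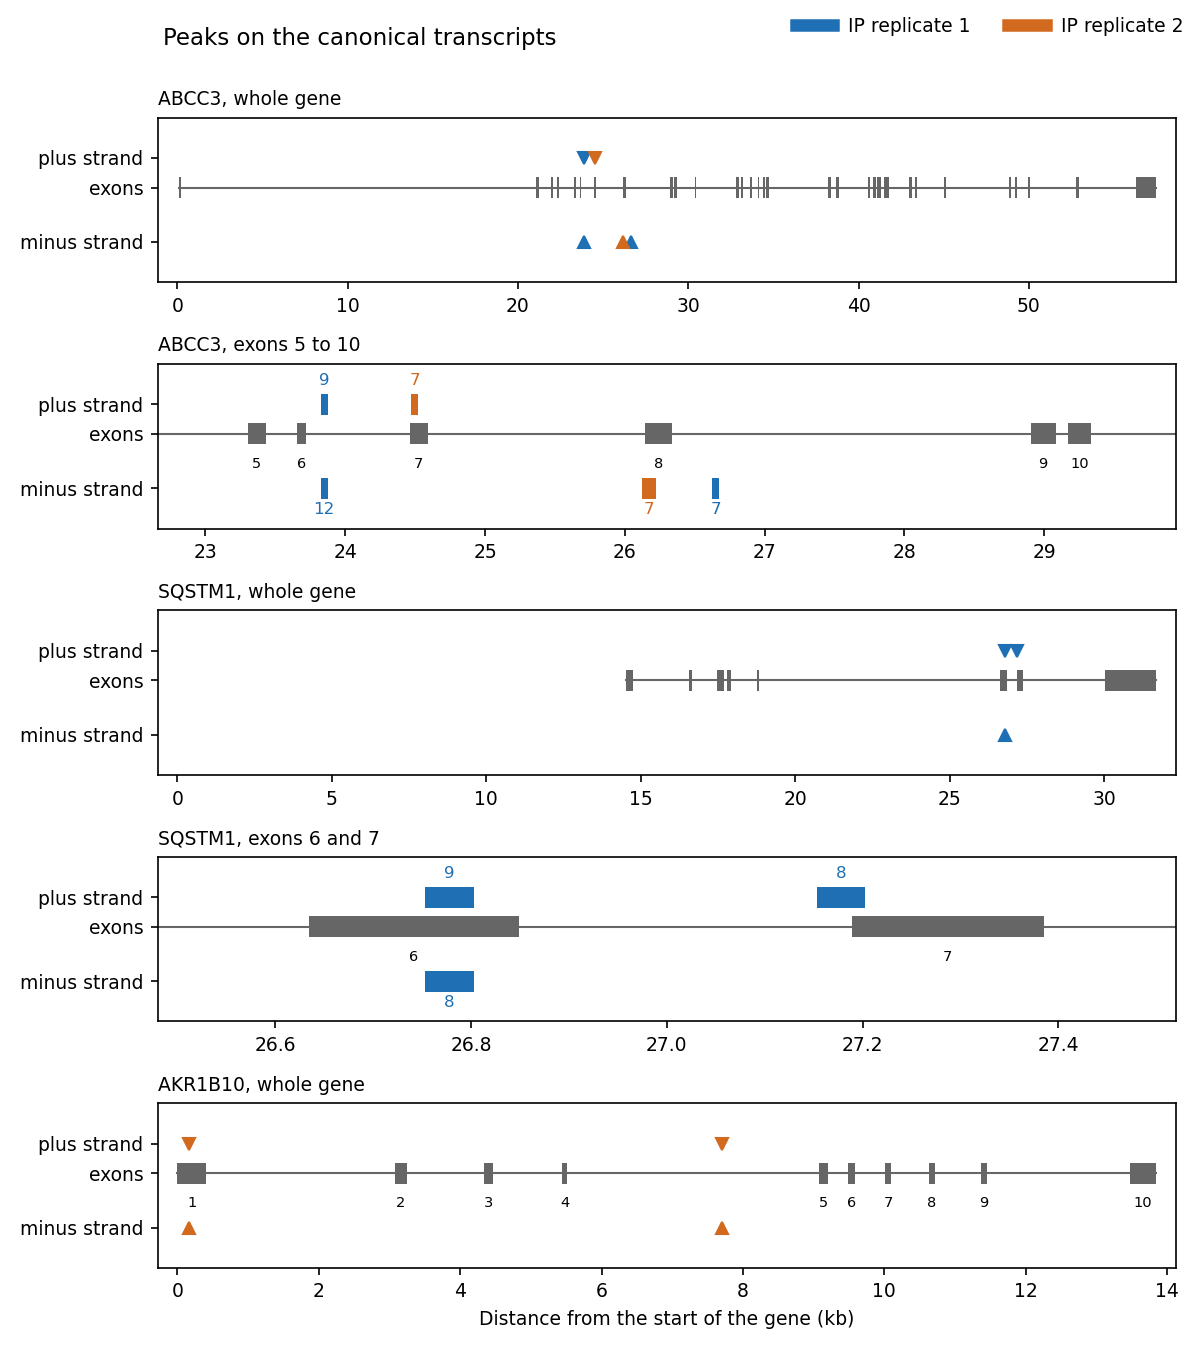
Peaks along ABCC3, SQSTM1 and AKR1B10, with distance from the start of the gene in kb on the x axis and grey boxes for the exons of the canonical transcript. Triangles (whole genes) and boxes to scale (enlarged views, with tags per bin and exon numbers) are peaks of IP replicate 1 in blue and IP replicate 2 in orange, above the exons for the plus strand and below for the minus strand. The ABCC3 peaks of both replicates gather between exons 6 and 9 without sharing a bin, those of SQSTM1 lie at exons 6 and 7, and those of AKR1B10 are 7600 bp from end to end.

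SQSTM1 (ENSG00000161011.20, chr5:179806398-179838078, plus strand, 8 exons in the canonical transcript) had 3 peaks at 2 positions, all in IP replicate 1. The position in exon 6 had 9 tags on the plus strand (4.12 to 17.1, p-value 9.16e-08) and 8 tags on the minus strand (3.45 to 15.8, p-value 3.17e-07). It lay wholly in coding sequence, in codons 292 to 308 of 440. The other position had 8 tags on the plus strand (3.45 to 15.8, p-value 6.67e-07) and no peak on the minus strand. It spanned the 3′ splice site of exon 7, with 36 bases in intron 6 and 14 in the exon, in codons 324 to 328. In the list it is given as intronic, after its larger share.

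Both positions of SQSTM1 lay within 450 bp, or 1.42% of the gene, and 2 of the 27 genes with peaks at several places had a shorter span. Of the peaks in IP replicate 1, 46.4% had more tags than the higher SQSTM1 peak and 54.1% more than the lower peaks. The genes MGAT4B and MRNIP overlap the ends of SQSTM1 on the minus strand in the annotation, but neither reaches these positions.

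AKR1B10 (ENSG00000198074.10, chr7:134527567-134541412, plus strand, 10 exons) had 4 peaks at 2 positions, all in IP replicate 2. At a position in the 5′ UTR of exon 1, chr7:134527701-134527750, each strand had 6 tags (2.20 to 13.1). A position in intron 4, 1350 nt from the nearest splice site, also had 6 tags on each strand (2.20 to 13.1). These are the lowest tags of any peak in that list, and 67.2% of its peaks had more. The positions spanned 7600 bp, or 54.9% of the gene, and 20 of the 27 genes had a shorter span. No other annotated gene overlaps AKR1B10.

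The p-values of the AKR1B10 peaks differed by strand at equal tags. Both plus-strand peaks had a p-value of 0.00846, the largest in the list of IP replicate 2 and shared by 31 peaks, and both minus-strand peaks had one of 6.29e-06. In each list, the p-value of a 1-bin peak was the same for all peaks of the same strand and tags. At the lowest tags of IP replicate 1, which is 7, plus-strand peaks had a p-value of 0.00397 and minus-strand peaks one of 2.65e-06. The p-values of the 11 peaks of 1 bin thus carry no information beyond strand and tags, and they are not a ranking of these genes.

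**Figure D3:**
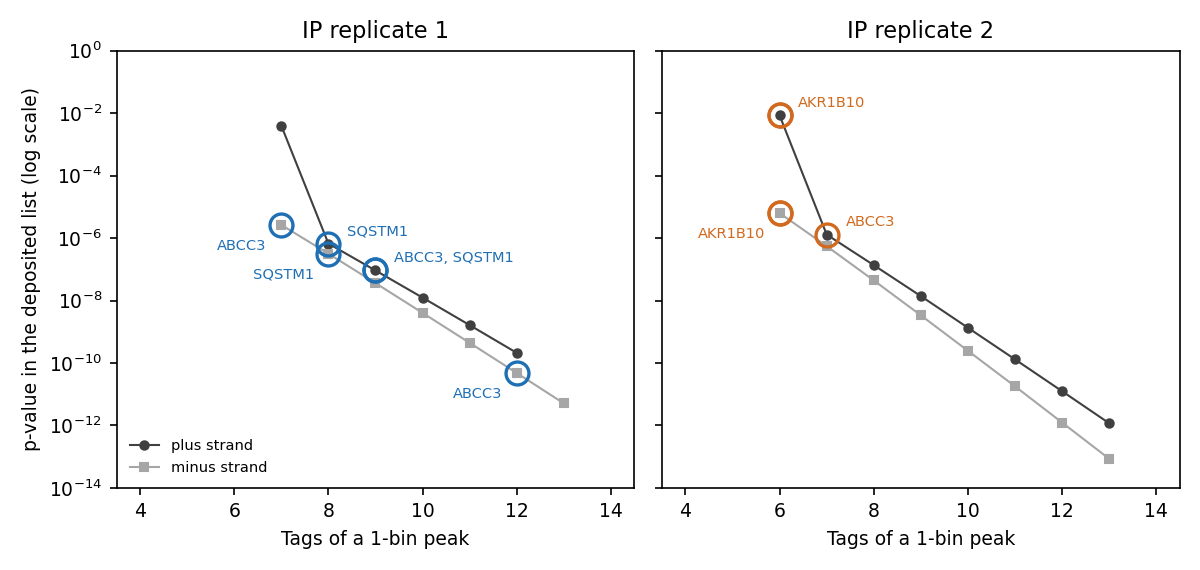
p-value in the deposited list (y axis, log scale) against tags of 1-bin peaks of up to 13 tags (x axis) in IP replicate 1 (left) and IP replicate 2 (right). Dark circles are plus-strand peaks and light squares minus-strand peaks, and coloured rings mark the peaks of the named genes. At 6 tags the AKR1B10 peaks on the plus strand have a p-value of 0.00846 and those on the minus strand one of 6.29e-06.

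The peaks lay as often on the strand opposite the gene as on its own. Of the 12 peaks, 6 were on the strand of their gene (50.0%, Wilson 95% interval 25.4 to 74.6). The interval treats the peaks as independent, which peaks over the same region are not. Of all peaks with a gene 50.7% were on its strand, and of those with a protein-coding gene 53.6%. By gene, this held for 2 of 5 peaks of ABCC3, 2 of 4 of AKR1B10 and 2 of 3 of SQSTM1. A peak over the identical region of the other strand was present for 8 of the 12 peaks, and for 50.6% of all peaks. Each such pair adds 1 peak to either strand, so its share on the strand of the gene is fixed at 50.0%. Only the peaks without such a partner could move the shares given here. In IP replicate 1, 46 regions had a peak on both strands, with equal tags in 45.7%, and in IP replicate 2 there were 60 such regions, with equal tags in 46.7%. What gave peaks on both strands was not tested.

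Of the 8 positions, 2 spanned a splice site of the canonical transcript. The share over all positions of the lists is not given here, so this count is a description and no trait of these genes. Further annotated transcripts have other splice sites nearby. For the ABCC3 intron 6 position, 1 transcript annotated as a target of nonsense-mediated decay ends exon 6 later, 55 nt before the position. Before the exon 7 position, another transcript of that class starts the exon at 50659182, while 5 transcripts start it at 50659237. In SQSTM1, 1 protein-coding transcript ends exon 6 at 179833227, 27 bp past the position, and 2 others end it at 179833246, 46 bp past it. The peak lists do not hold junction reads, so use of these sites was not measured here.

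In the gene lists of the study, ABCC3 stands among the genes with both a peak and regulated splicing after FSCN1 knockdown. It also stands among the peak genes of the study's comparison with changed expression. The labels of that comparison do not settle whether the expression of ABCC3 itself changed. AKR1B10 and SQSTM1 stand there among genes with regulated splicing that are outside the peak-gene list. In the deposited peak lists, AKR1B10 had 4 peaks and SQSTM1 3. Of the NRF2 genes listed further on, AKR1B1, FTH1 and FTL stand among the study's peak genes of the splicing comparison and have peaks in the deposited lists. MAFK, GCLM, TXNRD1, SRXN1, PGD, UGDH and ABCC2 stand among the former and have no peaks in the latter. Of all these genes, only FTH1, MAFK, SRXN1 and ABCC2 were also found among the peak genes of the study's expression comparison. According to the methods, final peaks were screened for their abundance over input. The deposited lists give no fold over input, so that screen could not be applied here, and whether it accounts for the place of these genes was not tested. The methods also describe a scan in windows narrower than 50 bp, rules on depth, and a screen by p-value or maximum depth. Target genes were taken from the resulting peaks. The set of peak genes that the study overlapped with its splicing and expression results is not defined there. The study's lists and the deposited ones therefore need not rest on the same peak set.

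The GC content of the positions varied widely within each gene. In ABCC3 it was 66.0% for the intron 6 position, 60.0% in exon 7, 67.0% across the start of exon 8 and 46.0% in intron 8, against 55.7% for the exons of the gene. In SQSTM1 it was 68.0% in exon 6 and 50.0% at the start of exon 7, against 57.1%. In AKR1B10 it was 66.0% in exon 1 and 20.0% in intron 4, against 47.7%. Thus 5 positions were above the exons of their gene and 3 below, and each gene had at least 1 of either kind. Averaged over the positions of a gene and then over the 3 genes, positions exceeded exons by 0.409 percentage points. In IP replicates 1 and 2 alone the difference was 1.11 and 1.53 points (SD 0.294, n = 2). Each replicate holds 2 of the genes, and not the same 2, so this SD does not measure how well the difference repeats. Single positions ranged from -27.7 to 18.3 points, both in AKR1B10. The median over all positions was 66.0% in each list, and 4 of the 8 positions reached it.

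**Figure D4:**
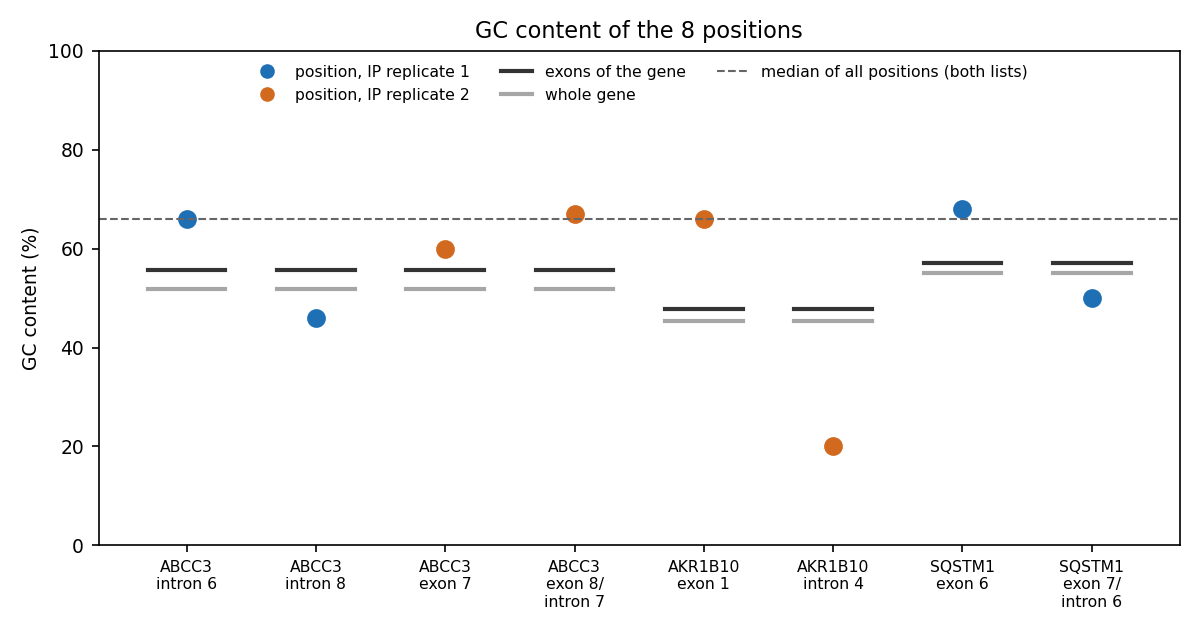
GC content in percent (y axis) of the 8 positions (points, blue for IP replicate 1 and orange for IP replicate 2), beside that of the exons of the gene (dark bars), the whole gene (light bars) and the median of all positions of either list (dashed line). The AKR1B10 intron 4 position is lowest at 20.0%, and 4 positions are at or above 66.0%.

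Reads of the full 150 bases can be placed at these positions. The RNA was digested, and fragments shorter than the read were not considered in the count of windows. Every 150-base window over each of the 8 positions held a 30-base word found once in the genome, and this was true of 48.4% of all 304 positions. At 7 of the 8, every word inside the position was found once. At the AKR1B10 exon 1 position this held for 8 of 21 words, and 1 word had 32020 copies in the genome. That position with 50 bp on either side aligned to RN7SL1, the 7SL RNA from which Alu repeats derive, over 76 bp at 82.9% identity, with 32 bp inside the position. This is under the limit of 85% identity used for likeness to a structural RNA, which none of the 8 positions reached. Whether RNA from other copies added to its tags was not tested.

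Other genes of the pathway were read from a list of 55 NRF2 genes, of which 6 had a peak in either replicate. Besides ABCC3, AKR1B10 and SQSTM1, these were AKR1B1, FTH1 and FTL, or 3 of the remaining 52. Of all 20046 annotated protein-coding genes 0.424% had a peak. These lists hold no RNA levels of the cells to set peaks against, so the share of the NRF2 genes says nothing particular about the pathway. None of the 7 regulators had a peak, namely NFE2L2, KEAP1, CUL3, the small MAF partners MAFF, MAFG and MAFK, and the repressor BACH1. None was found at the 11 genes of glutathione and thioredoxin or the 6 of NADPH supply. Peaks were found at 2 of the 14 aldo-keto reductase and detoxification genes, 1 of the 6 export pumps, 2 of the 5 heme and iron genes and 1 of the 6 autophagy and other genes. A gene without a peak may still be expressed or bound below the threshold of the lists.

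AKR1B1, the aldose reductase and a paralog of AKR1B10, had 1 peak, in IP replicate 1. It had 7 tags (listed p-value 0.00397) on the plus strand, antisense to the gene, at chr7:134447951-134448000, with 21 bases in exon 7. AKR1B15, another paralog, had none, nor had the pumps ABCC1 and ABCC2, paralogs of ABCC3. FSCN1 itself had none.

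The ferritin genes had the highest peaks of the NRF2 list in IP replicate 1, by differences from ABCC3 that lie within counting error. FTH1, the ferritin heavy chain, had peaks of 16 tags on both strands, 9 on both strands and 7 on its own strand in IP replicate 1, and of 8 tags on its own strand and 6 on the other in IP replicate 2. FTL, the ferritin light chain, had 18 tags on both strands in IP replicate 1 and 6 on its own strand in IP replicate 2. In FTH1 and FTL, as in ABCC3, peaks were found in both replicates at different bins.

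Genes most like each of the 3 were sought among protein-coding genes with peaks in the same replicates only and the same feature at the tallest peak, by the smallest difference in its tags. For ABCC3, with 12 tags antisense, these were UCHL1 with 9 tags and FTH1 with 16, of 7 candidates. The tallest peak was taken over both lists without scaling, and for ABCC3, UCHL1 and FTH1 it came from IP replicate 1. For SQSTM1, with 9 tags in coding sequence, they were NOP53 and RPS27 with 8 each, of 4. For AKR1B10, with 6 tags in a 5′ UTR, the one candidate was PTMS with 7. Several AKR1B10 peaks tie at 6 tags, and the tallest peaks of FTH1 (16) and NOP53 (8) tie between the strands, so the feature of each was taken from the one listed first.

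Of 11 epithelial, alveolar and mesenchymal markers fixed for A549 cells, 1 had a peak, the keratin KRT8 with 7 tags in IP replicate 2. Absence from a peak list says nothing on expression, so these data neither bear out nor go against the labelled cell line.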

How the data were processed

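A549 peak lists of the 2 FSCN1 IP replicates were analysed. According to the methods, the authors used HISAT2 to align 150-nt paired-end reads to GRCh38, left out multiply aligned reads and PCR duplicates, and took peaks from ABLIRC and Piranha. Final ABLIRC peaks had to pass a minimum fold over the input, which the deposited lists do not hold. The signal is the number of tags per 50-bp bin as deposited by the authors, with no scaling to depth. The p-value of each peak is that in the deposited lists. How the mates of a read pair were counted by strand is not given in the sources used here. The study calls the IP samples biological replicates, and whether they were separate cultures is not stated further.

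From there, peaks were placed on GRCh38 with GENCODE 44 (all 121 gene identifiers matched), a later release than the one in the methods, using Python 3.11.15, pysam 0.24.0, scipy 1.17.1 and blastn 2.17.0. Overlapping peaks of either strand were merged into positions. Structural RNA likeness needed 40 bp at 85% identity. With 1 condition, no groups were tested. Shared peaks overlapped by 1 bp or more on 1 strand. Alternatives were peaks above the median of their list, positions counted once, the authors' gene assignment only, 50% reciprocal overlap, either strand, whole-gene GC content and each replicate left out. Named genes were the 3 genes, NRF2-list genes with a peak here or in the study's peak-gene lists, and the list's regulators. Paralogs, overlapping genes, the 2 genes most like each, the marker with a peak and FSCN1 were also named. The members and lists were chosen with earlier results of these data known. Counting and interval code was tested on simulated data.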

Additional observations from a re-analysis of the deposited data

How the results depend on the processing

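The 12 peaks became 8 when each position was counted once and stayed 12 by the authors' gene assignment, and each replicate left out gave 6 to 6. With only peaks above the median of their list, 1 peak remained, the minus-strand peak of ABCC3 intron 6, 0 lay on the strand of the gene in place of 6, and 3 NRF2 genes had a peak in place of 6. Leaving out each replicate gave 3 to 3 peaks that were sense to their gene, and 4 to 5 NRF2 genes. The overlap between replicates was 0 under each setting tried, which were a 50% reciprocal overlap, either strand and peaks above the median. The GC difference of 0.409 points was 3.14 against the whole gene, 10.3 with peaks above the median, which leaves 1 position, and 1.11 to 1.53 with each replicate left out, so its size depended on the choice of sequence and peaks. No paired analysis was possible because the input samples that share replicate numbers with the IP samples have no values here and no test was run. Within each replicate the intervals of the highest and the lowest peak of the 3 genes overlap, so their order is not resolved at these tags.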
